A study of Mus musculus with 144 samples.

Results

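Serum amyloid A, orosomucoid and related acute-phase transcripts were followed in mouse liver and in cells isolated from it. The group comprised 10 genes, taken by symbol: Saa1, Saa2, Saa3, Saa4, Orm1, Orm2, Orm3, Lcn2, Hp and Apcs. All 10 were found, with 1 row each, among the 24421 gene symbols of each of the 4 deposited tables. The mice were male C57BL/6J on normal chow, and every library came either from a control (labelled WT) or from a REV-ERB a/b double knockout, which per the series was made in hepatocytes of adult mice. The deleted nuclear receptors are transcriptional repressors of the circadian clock. Whole liver was taken at 8 zeitgeber times (ZT, the hour since lights came on), namely 1, 4, 7, 10, 13, 16, 19 and 22 under ad libitum feeding and, in a separate table, under reverse-phase feeding. Endothelial cells and Kupffer cells were isolated at ZT 4, 10, 16 and 22, with no feeding schedule named in their labels. Each of the 48 groups had 3 libraries, giving 48 per liver table and 24 per cell table. The table columns name the genotypes GFP and CRE, read here as a control vector and a recombinase, so what was delivered and the genotype cannot be told apart. The labels give no ages, nor whether the 3 libraries of a group were separate animals, and every p-value therefore refers to spread among libraries, which may be technical.

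The acute-phase response is the switch in hepatocyte secretion that follows infection or injury. Interleukin 6 and interleukin 1 reach hepatocytes and act through STAT3, NF-kB and C/EBP factors to raise transcripts such as Saa1, Saa2 and Orm1, while negative acute-phase proteins such as albumin decline. Saa1 and Saa2 encode the inducible serum amyloid A proteins carried on high-density lipoprotein, Saa4 encodes the constitutive form, and Saa3 is known for expression outside hepatocytes, including macrophages. The Orm genes encode α1-acid glycoproteins, Lcn2 a siderophore-binding lipocalin, Hp the haemoglobin-binding haptoglobin, and Apcs serum amyloid P, a pentraxin.

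The 4 Saa transcripts lay on mm9 chromosome 7 within 42317 bases. Saa3 spanned 53967368 to 53971046, Saa4 53983369 to 53987913 and Saa1 53995869 to 53998350, all on the minus strand, and Saa2 spanned 54007203 to 54009684 on the plus strand. The 3 Orm transcripts lay on the plus strand of chromosome 4 within 21322 bases, with Orm1 at 63005590 to 63009197, Orm3 at 63017196 to 63020545 and Orm2 at 63023483 to 63026911. Lcn2 was on chromosome 2 (32240157 to 32243259), Hp on chromosome 8 (112099028 to 112103072) and Apcs on chromosome 1 (174824092 to 174825185), all on the minus strand. The Saa1 and Saa2 transcripts were 93.9% identical over their alignment, with 1 identical run of 99 bases, and Orm1 and Orm2 were 91.0% identical, Orm2 and Orm3 88.0%. Reads could therefore be split between these neighbours by the authors' counting, and the separate levels of Saa1 and Saa2 and of the Orm genes are uncertain to that extent.

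Promoters are shown for Saa1, Saa2 and Saa4, because each holds the AGGTCA core to which REV-ERB and ROR receptors bind. The 250 bases before each annotated start are from RefSeq on GRCm38.p6, read along the gene's own strand, with the core in capitals; it lies on the opposite strand and therefore reads TGACCT. The positions are chr7:46742981-46743230 on the minus strand for Saa1, chr7:46751583-46751832 on the plus strand for Saa2 and chr7:46732604-46732853 on the minus strand for Saa4.
Saa1: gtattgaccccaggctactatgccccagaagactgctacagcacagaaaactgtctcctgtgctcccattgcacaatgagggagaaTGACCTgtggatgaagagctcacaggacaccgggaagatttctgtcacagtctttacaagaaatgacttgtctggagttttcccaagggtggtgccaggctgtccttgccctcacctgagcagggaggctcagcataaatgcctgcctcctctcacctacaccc
Saa2: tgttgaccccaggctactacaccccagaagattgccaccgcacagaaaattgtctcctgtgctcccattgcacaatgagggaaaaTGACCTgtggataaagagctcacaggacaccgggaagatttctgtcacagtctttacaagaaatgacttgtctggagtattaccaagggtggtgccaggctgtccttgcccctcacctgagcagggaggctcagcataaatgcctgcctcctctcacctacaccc
Saa4: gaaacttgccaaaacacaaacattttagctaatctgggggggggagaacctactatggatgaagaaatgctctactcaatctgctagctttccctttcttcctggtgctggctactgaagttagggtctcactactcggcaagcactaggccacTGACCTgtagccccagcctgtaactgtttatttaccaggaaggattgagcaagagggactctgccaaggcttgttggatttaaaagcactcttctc
The Saa1 and Saa2 promoters were 94.8% identical, and their cores sat 164 and 165 bases before the start. The Saa1 and Saa4 promoters were 46.3% identical, and the Saa4 core sat 96 bases before the start. RefSeq promoters were matched for 8 of the 10 genes. AGGTCA on either strand was present in 3 of these 8 and in 14.0% of 32536 mouse promoters of the same length. The core did not follow the size of the fall in the knockout. Orm3 has no AGGTCA in this window, yet it fell by 1.75 ad libitum and 1.92 under reverse-phase feeding on the log2 scale. Saa4 fell by 1.09 and 1.12. A part of the core in these differences was not tested. The C/EBP pattern TTNNGNAA was present in 7 of 8, against 36.8% of promoters, the STAT3 pattern TTCNNNGAA in 1 of 8 (Apcs), against 7.04%, and an NF-kB-type pattern, GGGA and CC with any 4 bases between them, in 0 of 8, against 17.7%. The patterns can overlap one another, and a match is a description of letters in this window.

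Ad libitum liver libraries held from 4.57e6 to 10.4e6 counts, and those of the reverse-phase table from 13.1e6 to 26.2e6. Values of the endothelial and Kupffer tables were quantile normalised and their depth is unknown. By length slope, spread or ribosomal share, 10 of the 144 libraries stood apart. Of these, 2 were ad libitum controls (ZT 16 and ZT 22, number 2) and none was a reverse-phase liver library. In endothelial cells they were knockout ZT 22 numbers 2 and 3. In Kupffer cells they were control ZT 4 numbers 1, 2 and 3, knockout ZT 4 numbers 2 and 3 and knockout ZT 22 number 2. Most Kupffer libraries at ZT 4 thus stood apart, which bears on time in those cells. The targeted transcripts were higher, not lower, in libraries labelled knockout: Nr1d1 by 1.74 ± 0.15 and Nr1d2 by 1.10 ± 0.10 on the log2 scale (SE) ad libitum, and by 1.83 ± 0.15 and 0.80 ± 0.08 under reverse-phase feeding. These counts cover the whole transcript and do not check the deletion, so directions below are those of the libraries labelled knockout.

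In ad libitum liver, 9 of the 10 genes were lower in the knockout and Apcs was higher. The genotype effect is the difference between knockout and control in the fitted daily mean of log2 expression (edgeR quasi-likelihood, Benjamini-Hochberg adjusted over all 12571 genes tested, called under 0.05). All 10 genes passed the filter on low counts. The 9 lower calls stand against a background of 13.8% of genes called lower, and the 1 higher call against 13.5% called higher. The median effect over the members was -0.77, and over all genes tested it was -0.01. In bulk liver, fewer cells that make a transcript and less transcript per cell cannot be told apart. Alongside, 9 of 12 endothelial and 9 of 10 stellate marker genes were called higher in the knockout and 0 of 12 Kupffer markers were called. The summed stellate markers ran from 188 to 424 CPM in controls and from 254 to 547 in the knockout, the endothelial markers from 163 to 364 and from 196 to 375, and the Kupffer markers from 353 to 659 and from 340 to 655. Of 12 hepatocyte markers, 2 were called lower and 5 higher, with a median effect of 0.10. Summed hepatocyte markers ran from 123272 to 172078 CPM in controls and from 107095 to 163317 in the knockout. Alb, which is on that list and makes up much of the sum, had medians of 100473 and 76234 CPM. No marker on these 4 lists was at 0 in every library, and their part in the acute-phase differences was not tested.

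Saa1 showed the largest fall of the 10. Its level in the 24 control libraries ran from 25.4 to 1037 normalised CPM (a count scaled to its library's TMM-adjusted total), with a median of 125. In the 24 knockout libraries it ran from 7.57 to 73.9, with a median of 20.5. All 24 knockout libraries were below the control median and 17 were below the lowest control. The fitted difference was -3.33 ± 0.36 (SE, edgeR adjusted p = 5.4e-10), and the ratio of medians was 6.07. The 3 knockout libraries lay below the 3 controls at 7 of 8 ZT, where 10.6% of all gene and ZT combinations do so. The exception was ZT 10, where control number 2 had 25.4 CPM and the knockout libraries 25.8, 29.7 and 30.1.

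Control libraries were far more uneven in Saa1 than knockout libraries. At ZT 4 the controls read 78.9, 1037 and 176 CPM, and at ZT 13 they read 1001, 180 and 60.4. The coefficient of variation within a group had a median of 87.2% in controls and 14.3% in the knockout. Saa2 followed the same libraries, with 28.1, 458 and 50.8 CPM in controls at ZT 4 and 479, 58.5 and 15.9 at ZT 13. Saa2 ranged from 7.80 to 479 CPM in controls (median 31.5) and from 5.19 to 39.3 in the knockout (median 10.02). It fell by 2.68 ± 0.39 (SE, edgeR adjusted p = 7.3e-07). Its groups overlapped more than those of Saa1, with 8 of 24 knockout libraries below the lowest control and full separation at 4 of 8 ZT.

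Saa4, the constitutive form, fell by 1.09 ± 0.11 on the log2 scale with little spread (SE, edgeR adjusted p = 1.9e-10). Saa4 ranged from 350 to 1310 CPM in controls (median 534) and from 169 to 706 in the knockout (median 242). It was the only member whose genotypes were separate at all 8 ZT. At ZT 16, where controls were highest, they read 1236, 1310 and 1059 CPM and the knockout libraries 349, 281 and 386. At ZT 13 the knockout libraries were split, with 706, 180 and 671 CPM. Saa3 was low throughout, at 2.51 to 10.4 CPM in controls (median 5.18) and 2.19 to 5.85 in the knockout (median 3.25), and fell by 0.67 ± 0.13 (adjusted p = 4.2e-05).

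Among the orosomucoids the rarest transcript fell most. Orm3 ranged from 0.99 to 12.3 CPM in controls (median 3.37) and from 0.36 to 4.61 in the knockout (median 1.25), resting on as few as 3 counts in a library. It fell by 1.75 ± 0.24 (SE, edgeR adjusted p = 9.6e-08), with separate groups at 5 of 8 ZT. Orm2 (control median 29.9 CPM, knockout 21.3) fell by 0.60 ± 0.15 (adjusted p = 0.0017), a call lost without replicate number 3 (-0.55, adjusted p = 0.0556). Orm1, the most abundant of the 3, had medians of 860.5 and 685 CPM and fell by 0.36 ± 0.08 (adjusted p = 0.000518). Orm1 and Orm2 were separate at 2 of 8 ZT each, where 10.6% of all gene and ZT combinations were so. Of their 24 knockout libraries, 23 and 22 lay below the control median.

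Hp, the most abundant member, fell by 0.65 ± 0.08 (SE, edgeR adjusted p = 2.6e-08). Hp ranged from 2766 to 5374 CPM in controls and from 1787 to 4182 in the knockout, and the groups were separate at 6 of 8 ZT. Lcn2 fell by 0.86 ± 0.29 (adjusted p = 0.0228), from a control median of 16.1 CPM to 8.06, but 1 control library decided that call: without control ZT 16 number 1 the difference was -0.74 with an adjusted p of 0.0513. Without all ZT 16 libraries it was -0.56 (adjusted p = 0.192). Apcs rose by 0.31 ± 0.10 (adjusted p = 0.019), with medians of 103 CPM in controls and 125 in the knockout. That call was lost in each of the 3 fits that left out all libraries of 1 replicate number (0.26, 0.35 and 0.34, with adjusted p of 0.065, 0.0551 and 0.0892). All 3 knockout libraries lay above the controls at 2 of 8 ZT, where 10.3% of all gene and ZT combinations do so. These were ZT 10, with 66.5, 60.4 and 71.1 CPM in controls and 124, 81.3 and 157 in the knockout, and ZT 19, with 83.7, 82.4 and 106 against 142, 144 and 150. At ZT 4 it was not seen, with 138, 213 and 167 CPM in controls and 97.6, 197 and 138 in the knockout.

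**Figure D1:**
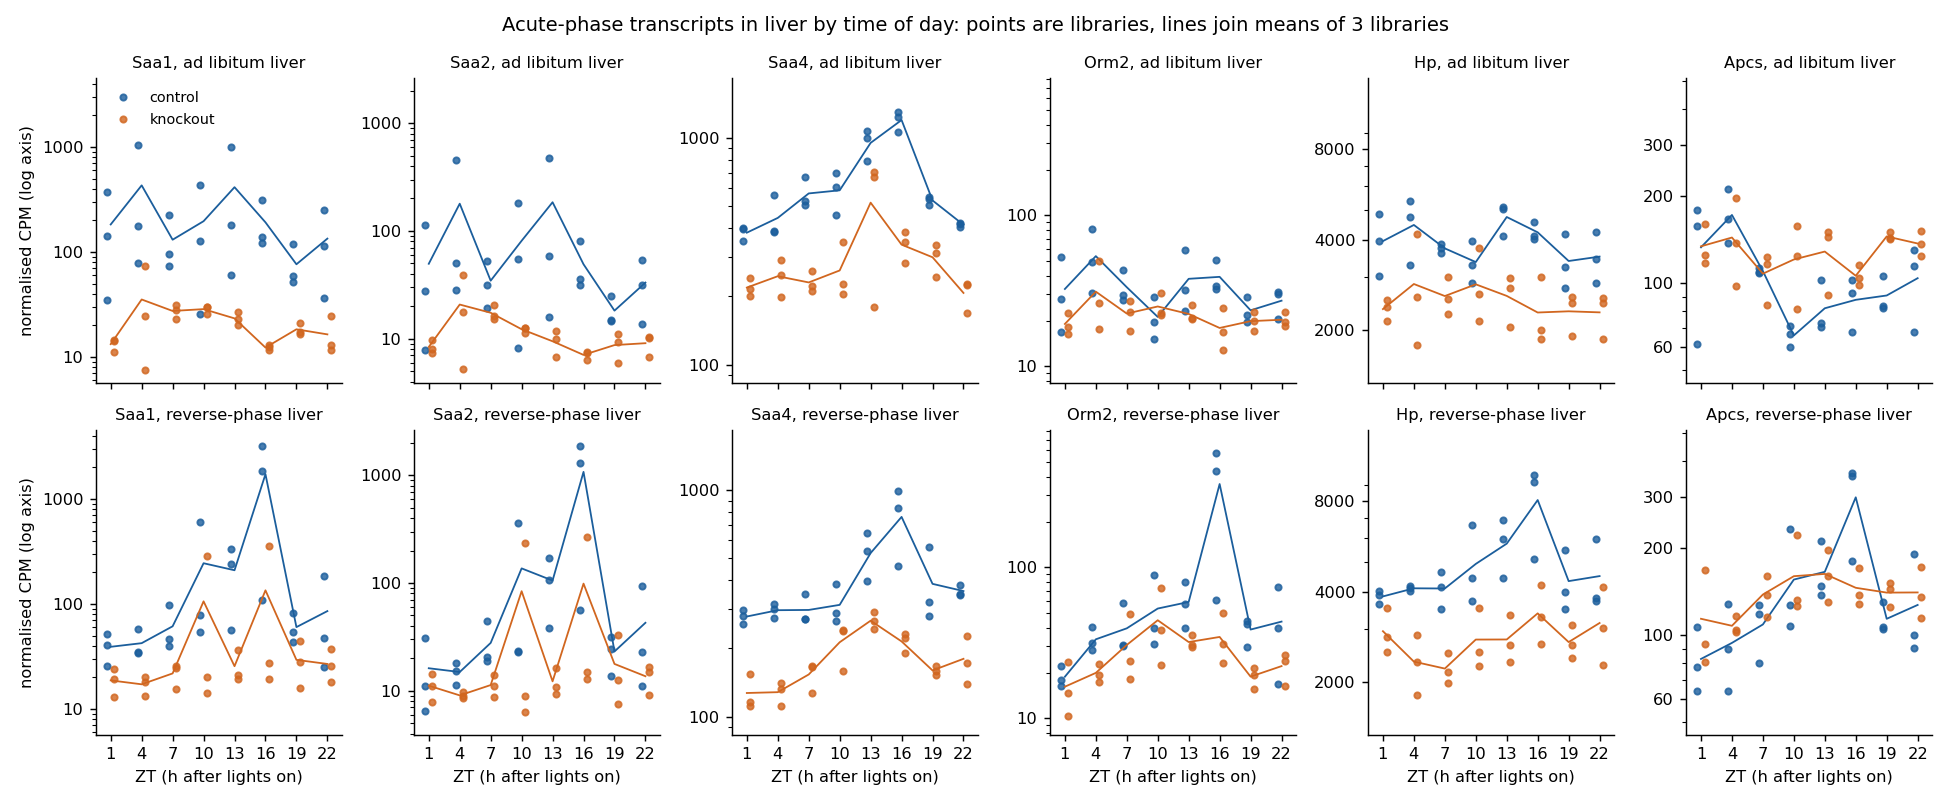
Normalised CPM on a log axis against ZT for 6 members in ad libitum (top) and reverse-phase (bottom) liver, controls in blue and knockout in orange; each point is 1 library and lines join the means of 3. Saa4 is separate at all 8 ZT in both rows, whereas Saa1 and Saa2 controls reach 3211 and 1859 CPM in single reverse-phase libraries at ZT 16.

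Under reverse-phase feeding 8 of the 10 genes were called lower in the knockout and 0 higher, where 14.1% of 13842 genes tested were called lower and 12.7% higher. The members' median effect was -1.07 and that of all genes -0.01. Saa1 fell by 1.96 ± 0.43 (SE, edgeR adjusted p = 0.000443) and Saa2 by 1.60 ± 0.49 (adjusted p = 0.0112). Without the ZT 16 libraries, an omission chosen after seeing the data, 6 of 10 remained called: Saa1 stood at -1.52 (adjusted p = 0.00182), while Saa2 at -1.14 (adjusted p = 0.0538) and Lcn2 at -0.39 (adjusted p = 0.491) were no longer called. Without replicate number 2, Saa1 at -1.47 (adjusted p = 0.06) and Saa2 at -1.14 (adjusted p = 0.218) were not called. Here too the higher stellate and endothelial markers accompanied the knockout, with 8 of 10 and 6 of 12 called higher. Their summed levels ran from 239.5 to 439 and from 178 to 338 CPM in controls and from 336 to 492 and from 210 to 375 in the knockout. Of 12 hepatocyte markers, 2 were called lower and 3 higher.

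The reverse-phase Saa1 values were dominated by a few libraries. Saa1 had a median of 55.6 CPM in controls, with a range of 25.3 to 3211, and a median of 20.7 in the knockout, with a range of 12.9 to 358. At ZT 16 the controls read 3211, 1847 and 109 CPM and the knockout libraries 358, 19.5 and 27.7. At ZT 10 the controls read 600, 79.2 and 54.4 and the knockout libraries 20.4, 14.1 and 284. High Saa1 thus occurred in both genotypes, and the groups overlapped at both times. Saa2 was high in the same libraries, with 1859, 1307 and 56.2 CPM in controls at ZT 16 and 268, 12.97 and 14.9 in the knockout. Neither gene passed the test at any single ZT on this schedule.

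Saa4 again differed evenly, falling by 1.12 ± 0.09 (SE, edgeR adjusted p = 6.8e-14), with a control range of 257 to 990 CPM and a knockout range of 111 to 289. It was separate at 8 of 8 ZT, against 9.91% of all gene and ZT combinations. Saa3 was not called (-0.32 ± 0.20, adjusted p = 0.261). A single library decided that result: knockout ZT 10 number 3 had 32.8 CPM of Saa3 where the other knockout libraries had at most 8.48, and without it the difference was -0.65 with an adjusted p of 6.3e-05.

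Orm3 fell by 1.92 ± 0.33 (SE, edgeR adjusted p = 1.1e-05), Orm2 by 1.19 ± 0.25 (adjusted p = 0.000262) and Orm1 by 0.66 ± 0.11 (adjusted p = 8.6e-06). These falls were largest at ZT 16, where Orm2 read 578, 433 and 60.7 CPM in controls and 49.7, 31.1 and 23.1 in the knockout, and Orm1 read 2555, 2179 and 1167 against 956, 752 and 687. Without ZT 16 the Orm2 difference was -0.68, less than the value over all times by more than 1.5 times. Hp fell by 0.81 ± 0.09 (adjusted p = 5.6e-10), from a control median of 4153 CPM to 2655, with separate groups at 7 of 8 ZT. Lcn2 fell by 1.01 ± 0.38, but its adjusted p of 0.0433 passed 0.05 when any of 28 of the 48 libraries was left out in turn, reaching 0.101. Apcs did not pass (0.03 ± 0.12, adjusted p = 0.90), with medians of 123 and 134 CPM.

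**Figure D2:**
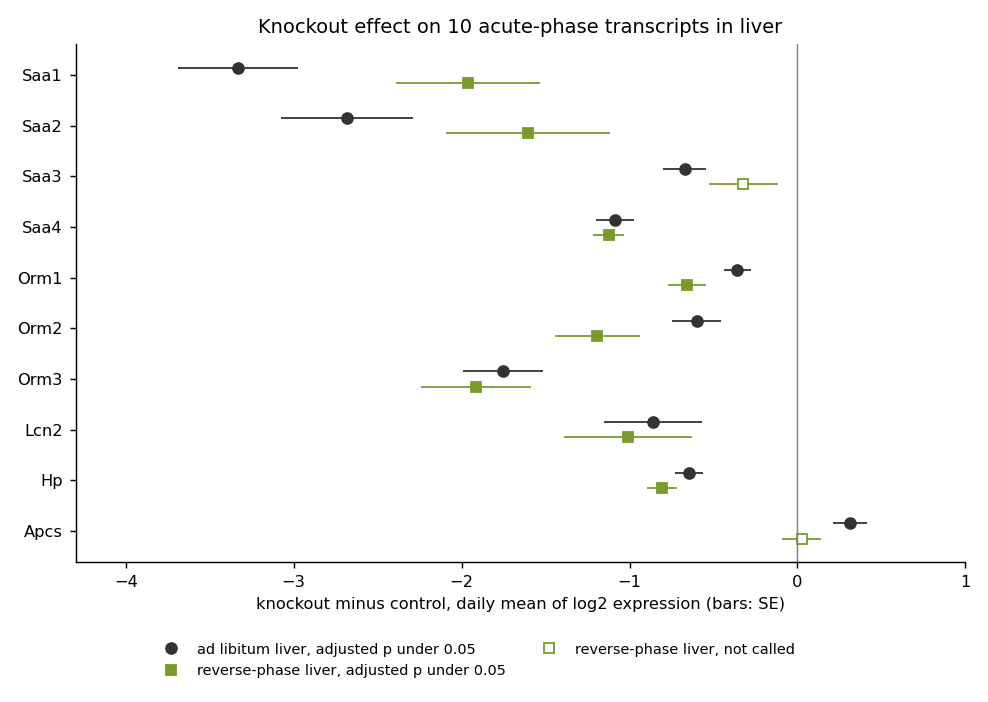
Knockout minus control in the daily mean of log2 expression (horizontal axis, bars SE) for the 10 members in ad libitum (black circles) and reverse-phase (green squares) liver; open squares were not called. Values run from -3.33 for Saa1 ad libitum to 0.31 for Apcs ad libitum, with Saa3 and Apcs open under reverse-phase feeding.

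At single times, 15 of 80 member and ZT combinations were called on each schedule. Ad libitum, 5 members were called lower at ZT 16 (Saa1, Saa3, Saa4, Orm3 and Hp), where 1.69% of genes were, and 5 at ZT 13 (Saa1, Saa2, Saa3, Saa4 and Hp), where 5.31% were. Under reverse-phase feeding 6 were called lower at ZT 16 (Saa4, Orm1, Orm2, Orm3, Lcn2 and Hp), against 1.30% of genes. The largest of those was Lcn2, which fell by 3.85 ± 0.98 (SE, edgeR adjusted p = 0.0239), from 217, 256 and 22.1 CPM to 17.8, 7.11 and 9.36. At the remaining times the calls concerned few members. Ad libitum they were Saa1 at ZT 1 (1.21% of genes lower), Orm3 at ZT 4 (0.668%) and Saa4 at ZT 7 (2.24%), ZT 10 (3.41%) and ZT 22 (0.788%). Under reverse-phase feeding they were Saa4 at ZT 1 (3.03%), ZT 4 (1.98%), ZT 19 (0.838%) and ZT 22 (2.20%), Hp at ZT 10 (1.94%), and both genes at ZT 7 (1.35%) and ZT 13 (0.650%). Without the 2 ad libitum controls that stood apart, 10 members were still called on the daily mean and 11 combinations at single ZT. The calls then lost were Saa3 at ZT 13 (adjusted p = 0.0525), Saa3 (0.074), Orm3 (0.211) and Hp (0.111) at ZT 16 and Saa4 at ZT 22 (0.118), and Orm3 at ZT 7 was gained (0.0439). With all libraries Saa4 had calls at 5 ZT on the first schedule and 7 on the second.

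The knockout effect was not shown to depend on the schedule. The test of genotype by feeding on the daily mean, in 1 edgeR fit of all 96 liver libraries, called 0 of 10 members and 0.206% of 13571 genes. At an unadjusted p under 0.05 it held 2 members: Saa1, whose fall was smaller by 1.38 ± 0.54 under reverse-phase feeding (adjusted p = 0.46), and Orm1, at -0.30 ± 0.14 (adjusted p = 0.67). DESeq2 was not run on the joint fit. The schedules were deposited as separate tables of unequal depth, and other differences between the tables cannot be told apart from feeding.

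More members were called rhythmic in reverse-phase than in ad libitum controls when a single 24-h curve was fitted. A rhythm was called when both terms of a fitted 24-h curve passed a joint test. Ad libitum controls had 2 rhythmic members of 10, against 48% of all genes. With a 12 h harmonic added there were 6, which brought in Saa2, Saa3, Orm1 and Orm2. The 48% belongs to the single curve and not to that fit, so the 6 are not read as particular to the members. The 2 called by the single curve were Saa4, with a fitted peak 2.66 times its trough at ZT 13.8 ± 0.6 h (SE, edgeR adjusted p = 5.7e-06), and Apcs, with 1.95 times at ZT 2.1 ± 0.8 h (adjusted p = 0.000558). The Apcs call was lost without replicate number 2 (adjusted p = 0.0713) or 3 (0.0804). The ad libitum knockout had 1, Saa4 at 1.95 times and ZT 13.8 ± 0.9 h (adjusted p = 0.00136), against 44.1%, a call lost without replicate number 1 (adjusted p = 0.0659) or 3 (0.194). Saa2 in ad libitum controls reached 4.73 times with an adjusted p of 0.0731, and it passed when any 1 of 6 control libraries was left out: ZT 1 number 3 (adjusted p = 0.0479), ZT 4 number 2 (0.022), ZT 7 number 2 (0.0366), ZT 7 number 3 (0.0438), ZT 10 number 2 (0.0272) or ZT 13 number 1 (0.0304).

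In reverse-phase controls 9 of 10 members were rhythmic, against 41.2% of genes, with fitted peaks between ZT 13.4 and ZT 15.7. Saa2 swung 44.2 times between trough and peak, Saa1 26.8 times, Lcn2 10.3 times and Orm2 7.68 times, with edgeR adjusted p between 1.2e-05 and 0.000738. Orm3 (3.83 times), Apcs (2.60), Orm1 (2.43), Saa4 (2.28) and Hp (1.73) swung less. These swings depended on the ZT 16 libraries: without them the swing was 5.82 times for Saa1, 7.67 for Saa2 and 2.22 for Orm2, all 3 still called, and 6 of 10 members were called, with Orm3, Lcn2 and Hp lost. The Orm3 call was also lost without control ZT 1 number 3 (adjusted p = 0.0626), ZT 4 number 2 (0.0547), ZT 16 number 1 (0.139) or ZT 16 number 2 (0.0752). Saa3, not called with all libraries (adjusted p = 0.106), was called without knockout ZT 10 number 3, which enters the shared fit (adjusted p = 0.00298).

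The reverse-phase knockout had 4 rhythmic members against 36.9% of genes. Saa4 swung 1.87 times with a peak at ZT 14.0 ± 0.8 h (SE, edgeR adjusted p = 0.000538) and Orm1 1.81 times at ZT 12.6 ± 1.0 h (adjusted p = 0.00855), the latter lost without replicate number 3 (adjusted p = 0.104). Saa1 (6.08 times, adjusted p = 0.047) and Saa2 (8.74 times, adjusted p = 0.038) stood close to the threshold. The Saa1 call was lost in 23 of 48 single omissions, reaching an adjusted p of 0.213. The Saa2 call was lost without knockout ZT 1 number 2 (0.0599), ZT 4 number 1 (0.0585), number 2 (0.0572) or number 3 (0.0583), ZT 22 number 2 (0.0504) or ZT 16 number 1 (0.147, with a swing of 4.01 times). The difference in rhythm between genotypes was called for 0 of 10 members on either schedule by edgeR or DESeq2, against 3.38% of genes ad libitum and 1.52% under reverse-phase feeding. At an unadjusted p under 0.05 edgeR gave 1 member ad libitum (Apcs) and 3 under reverse-phase feeding (Orm2, Lcn2 and Apcs).

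The rhythm of controls differed between schedules for 7 members (Saa1, Saa2, Orm1, Orm2, Lcn2, Hp and Apcs) and that of the knockout for 3 (Saa2, Orm1 and Hp), against 53.5% and 49.5% of genes. Neither count is read as particular to the members. Apcs moved from a peak at ZT 2.1 in ad libitum controls to ZT 14.7 ± 0.6 in reverse-phase controls. Saa4 was not called (adjusted p = 0.14 in controls), with peaks at ZT 13.8 and ZT 15.7.

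Single libraries that were high for Saa2 were high for most of the other members. Each library's deviation from the mean of its own genotype and ZT was taken on the log2(CPM + 1) scale and compared with that of Saa2, over 48 libraries per schedule, for 18 relations in all. Of these, 14 passed a permutation test within groups (adjusted p under 0.05). Saa1 had Pearson's r of 0.97 and Spearman's rho of 0.89 ad libitum and 0.97 and 0.95 under reverse-phase feeding, each with a permutation p of 1e-05, the smallest that 100000 permutations can give (adjusted p = 9e-05). Without the 2 libraries farthest from the median of Saa2, r was 0.96 on both schedules. The part of reads shared between this near-identical pair was not tested.

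Lcn2, a gene on another chromosome, had r of 0.73 and rho of 0.67 ad libitum (permutation p = 5e-05, adjusted 0.000252) and r of 0.86 and rho of 0.78 under reverse-phase feeding (permutation p = 7e-05, adjusted 0.000252). Without the 2 farthest libraries r was 0.72 and 0.79. Orm2 had r of 0.79 and 0.75, and rho of 0.62 and 0.57 (permutation p = 6e-05 and 0.00052 for r, adjusted 0.000252 and 0.00104), and r was 0.74 and 0.67 without those libraries. Orm1, Hp, Apcs and Saa3 passed on both schedules with r between 0.47 and 0.69, although Saa3 ad libitum did not pass by rank (rho = 0.31, permutation p = 0.116, adjusted 0.14). Saa4 did not pass, with r of 0.16 (permutation p = 0.225, adjusted 0.254) and 0.20 (permutation p = 0.399, adjusted 0.422), nor did Orm3, with r of 0.36 (permutation p = 0.0499, adjusted 0.0599) and 0.18 (permutation p = 0.431, adjusted 0.431). The deviations of Saa4 and Orm3 were thus not shown to go with those of Saa2.

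**Figure D3:**
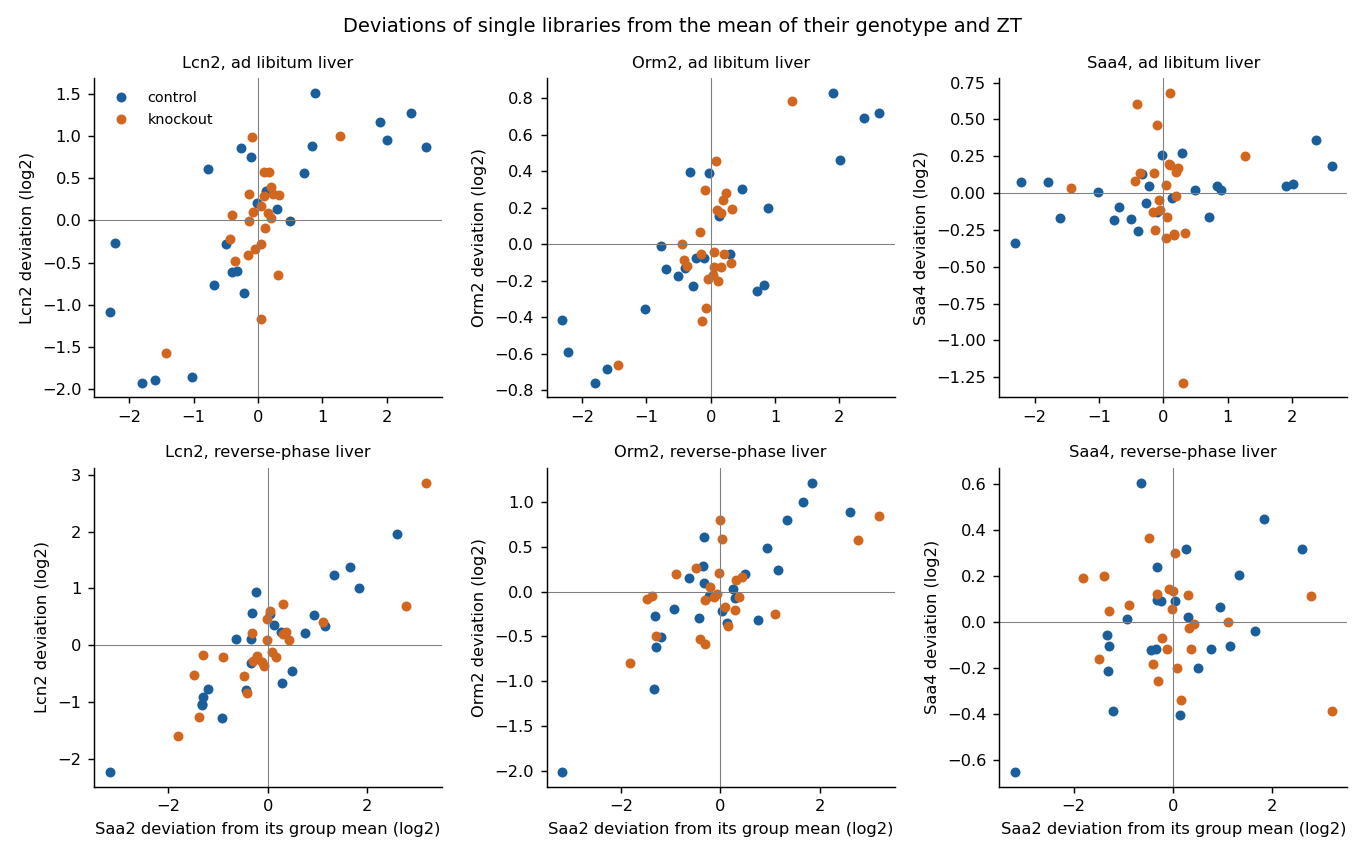
Deviation of each library from the mean of its genotype and ZT on the log2(CPM + 1) scale, with Saa2 on the horizontal axis and Lcn2, Orm2 or Saa4 on the vertical axis; the top row is ad libitum and the bottom row reverse-phase liver. Lcn2 and Orm2 climb with Saa2 (r of 0.73 and 0.79 ad libitum), and Saa4 shows r of 0.16.

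Across the 16 means of genotype and ZT on a schedule, the genes outside the group most like Saa2 in log2 level were Fgl1 (r = 0.94), Perp, Mup10, Dbf4 and Gm2083 (r = 0.91) ad libitum and Prg4 (r = 0.91), Steap4, Wfdc21, Ambp and Serpina10 (r = 0.87) under reverse-phase feeding. The compared genes numbered 11979 and 11900, the means share genotype and time, and no p is given. Saa1 (0.96 and 0.98), Hp (0.95 and 0.85) and Lcn2 (0.54 and 0.95) stood beside them, and Apcs was at -0.36 ad libitum and 0.75 under reverse-phase feeding.

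Other positive acute-phase proteins did not move as a block. Of 22 listed, 21 were tested, and 4 were called lower and 9 higher ad libitum, with a median of 0.00, where 13.8% of all genes were lower and 13.5% higher. Under reverse-phase feeding 6 were lower and 3 higher, with a median of -0.04, where 14.1% of all genes were lower and 12.7% higher. Fgl1, a secreted fibrinogen-like protein of hepatocytes, fell by 1.33 ± 0.16 ad libitum (SE, edgeR adjusted p = 1.2e-08) and by 1.56 ± 0.18 under reverse-phase feeding (adjusted p = 3.8e-09). Its mean went from 328 ± 122 to 132 ± 67.1 CPM (SD, n = 24 each) ad libitum. Vnn1, a pantetheinase, fell by 0.79 ± 0.14 and 0.58 ± 0.09. In the other direction, Mt2, a metallothionein, rose by 1.003 ± 0.355 ad libitum (adjusted p = 0.0306), and Cp, the copper carrier ceruloplasmin, rose by 0.70 ± 0.04 under reverse-phase feeding (adjusted p = 1.1e-18).

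Of 10 negative acute-phase proteins, 2 were lower and 4 higher ad libitum, and 2 lower and 3 higher under reverse-phase feeding. The lower counts are close to the 13.8% and 14.1% of all genes called lower, and 13.5% and 12.7% of all genes were called higher. Alb, the albumin gene, fell by 0.36 ± 0.05 ad libitum (SE, edgeR adjusted p = 4.4e-07) and by 0.42 ± 0.06 under reverse-phase feeding (adjusted p = 7.2e-07). Serpina6, which carries corticosteroids in blood, fell by 0.88 ± 0.08 and 0.65 ± 0.13. Ttr, which carries thyroid hormone, rose by 0.33 ± 0.05 ad libitum, and Apoa1, the main protein of high-density lipoprotein, rose by 0.35 ± 0.07 under reverse-phase feeding. Alb was also used as a scale. As a share of Alb CPM, Orm1 had medians of 0.841% in controls and 0.858% in the knockout ad libitum, and 0.972% and 0.927% under reverse-phase feeding. Saa4 had 0.501% and 0.329% ad libitum and 0.393% and 0.269% under reverse-phase feeding, and Saa1 had 0.126% and 0.025% ad libitum. These shares were not tested.

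Among 15 inducing cytokines and receptors, Il6, Osm, Lif and Il22 were too low to test in either liver table. Of those tested, 1 of 10 was called lower in the first table and 2 of 11 in the second, with 0 higher, about the 13.8% and 14.1% of all genes called lower. Il1rap, the interleukin 1 co-receptor, fell by 0.13 ± 0.03 ad libitum (SE, edgeR adjusted p = 0.0027) and by 0.18 ± 0.05 under reverse-phase feeding, and Il22ra1, a receptor for interleukin 22, fell by 0.51 ± 0.11 under reverse-phase feeding. Of 16 signalling and transcription factors, all tested, 5 were called lower in ad libitum and 4 in reverse-phase liver, with 0 higher, against 13.8% and 14.1% of all genes lower and 13.5% and 12.7% higher. Nfkbia, an inhibitor of NF-kB that is also its target, fell by 0.30 ± 0.07 and 0.28 ± 0.08. Rela, a subunit of NF-kB, and Nr1h4, the bile acid receptor FXR, each fell by 0.19 ad libitum (SE 0.05 and 0.06). Cebpb and Cebpd, C/EBP factors induced in the acute phase, fell by 0.63 ± 0.11 and 0.52 ± 0.14 under reverse-phase feeding. Neutrophil and monocyte markers summed to 2.99 to 8.03 CPM in ad libitum controls and to 3.01 to 15.3 in the knockout, a low level in both. Under reverse-phase feeding they summed to 3.62 to 9.60 CPM in controls and to 2.61 to 17.6 in the knockout. Of 13 such markers, 4 could be tested ad libitum, with 1 called higher and 0 lower. Under reverse-phase feeding 5 could be tested, with 0 called in either direction.

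Levels per kilobase of transcript ordered the members in control liver. Hp was first with a median of 2958 CPM per kb ad libitum, then Orm1 (1116), Saa4 (263), Saa1 (207), Apcs (105), Saa2 (52.1), Orm2 (39.0), Lcn2 (19.1), Saa3 (9.86) and Orm3 (4.41). The ranges of Hp (2068 to 4016) and Orm1 (735 to 1804) did not overlap, nor did those of Orm1 and Saa4 (173 to 646). Every other pair of neighbours overlapped. Under reverse-phase feeding Hp, Orm1 and Saa4 kept the top ranks (3104, 1079 and 164 CPM per kb), Apcs stood above Saa1 (126 and 92.5) and Orm2 above Saa2 (51.8 and 39.4). There the ranges of Hp (2609.7 to 7306) and Orm1 (620.3 to 3313) overlapped.

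In isolated endothelial and Kupffer cells no member was called by genotype or by time. Endothelial libraries carried endothelial markers at a summed signal of 73578 to 111201, against 7675 to 15160 in Kupffer libraries, and Kupffer libraries carried Kupffer markers at 140681 to 164635, against 6015 to 21818 in endothelial libraries. All 12 hepatocyte markers were also present, from 8162 to 120644 in endothelial and from 5833 to 71007 in Kupffer libraries. Alb alone spanned 5070 to 90905 and 3249 to 46746. These hepatocyte transcripts varied widely between libraries of a group, and the members' values below stand beside them.

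Of the 10 members, 6 passed the filter (at least 10 in 3 libraries) in endothelial cells and 5 in Kupffer cells. Saa1 passed it in Kupffer cells only through controls, since its knockout libraries reached 6.22 at most. In endothelial cells its knockout libraries reached 10.4 at most. The Saa1 tests in these cells thus concern a gene admitted by its higher group, and their p-values are not read as support for a difference. The genotype test (limma on log2(signal + 1), with time as a term) called 0 members in either, against 0.0240% and 0.0244% of genes, and held 2 members (Saa1 and Hp) and 1 (Saa1) at an unadjusted p under 0.05. The time test called 0, against 13.7% and 11.5% of genes, with 1 (Saa1) and 0 at an unadjusted p under 0.05. Saa1 in endothelial cells ranged from 3.03 to 105 signal units in 12 controls (median 13.5) and from 0 to 10.4 in 12 knockout libraries (median 3.71). All 12 knockout libraries lay below the control median. The difference was -2.29 ± 0.45 (SE, limma adjusted p = 0.0834), and it was called without knockout ZT 22 number 1 (-2.46, adjusted p = 0.0342) or number 2 (-2.44, adjusted p = 0.0339). Number 2 was among the libraries that stood apart and held the highest endothelial Alb signal, 90905. The time test of Saa1 was called without knockout ZT 16 number 3 (adjusted p = 0.0484, against 0.118).

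Saa1 in Kupffer cells was lower still, from 0 to 44.9 in controls (median 3.15) and from 0 to 6.22 in the knockout (median 0.53), with a difference of -1.62 ± 0.51 (SE, limma adjusted p = 0.9997). Hp, by contrast, was above 49 in every library, and its range was 119 to 910.4 in endothelial controls and 63.3 to 497 in the knockout, with a difference of -0.89 ± 0.41 (adjusted p = 0.968). In Kupffer cells Hp ran from 70.0 to 814 in controls and from 49.0 to 566 in the knockout (-0.80 ± 0.50, adjusted p = 0.9997). With the hepatocyte marker level as a covariate, the Hp difference was -1.03 ± 0.13 in endothelial cells (adjusted p = 6.6e-05) and -0.93 ± 0.14 in Kupffer cells (adjusted p = 0.0019), both called. That covariate also brought calls for Saa1 in endothelial cells (-2.37 ± 0.41, adjusted p = 0.0041) and Orm1 in Kupffer cells (-0.58 ± 0.13, adjusted p = 0.0331). For Saa1 the limit of the filter given above applies here too. It brought time calls for Orm1 (adjusted p = 0.0424) and Hp (0.0291) in endothelial cells and for Hp (0.0261) in Kupffer cells.

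Relative to Alb in control libraries, Hp, Saa4 and Orm1 were lower in the isolated cells than in ad libitum liver. Summed over control libraries, Hp was 1.90% of Alb in endothelial and 1.78% in Kupffer cells, which is 0.48 and 0.449 times the liver share. Saa4 was 0.151 and 0.148 times the liver share and Orm1 0.465 and 0.368 times. Saa3 in Kupffer controls was 2.41 times the liver share, at 0.735 to 8.60 signal units, and 2.59 times in the knockout, at 0 to 6.40. Saa3 in endothelial cells was lower, at 0 to 1.91 in controls, where it was at 0 in 6 of 12 libraries. Orm3 was also above the liver share in Kupffer cells, at 1.56 times in controls and 6.67 times in the knockout, on signal of 0 to 6.24. These ratios were not tested, rest on differently normalised tables, and for Saa3 and Orm3 rest on values near 0. After quantile normalisation Alb read the same value, 35198, in several endothelial control libraries, so its differences between libraries may be compressed.

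**Figure D4:**
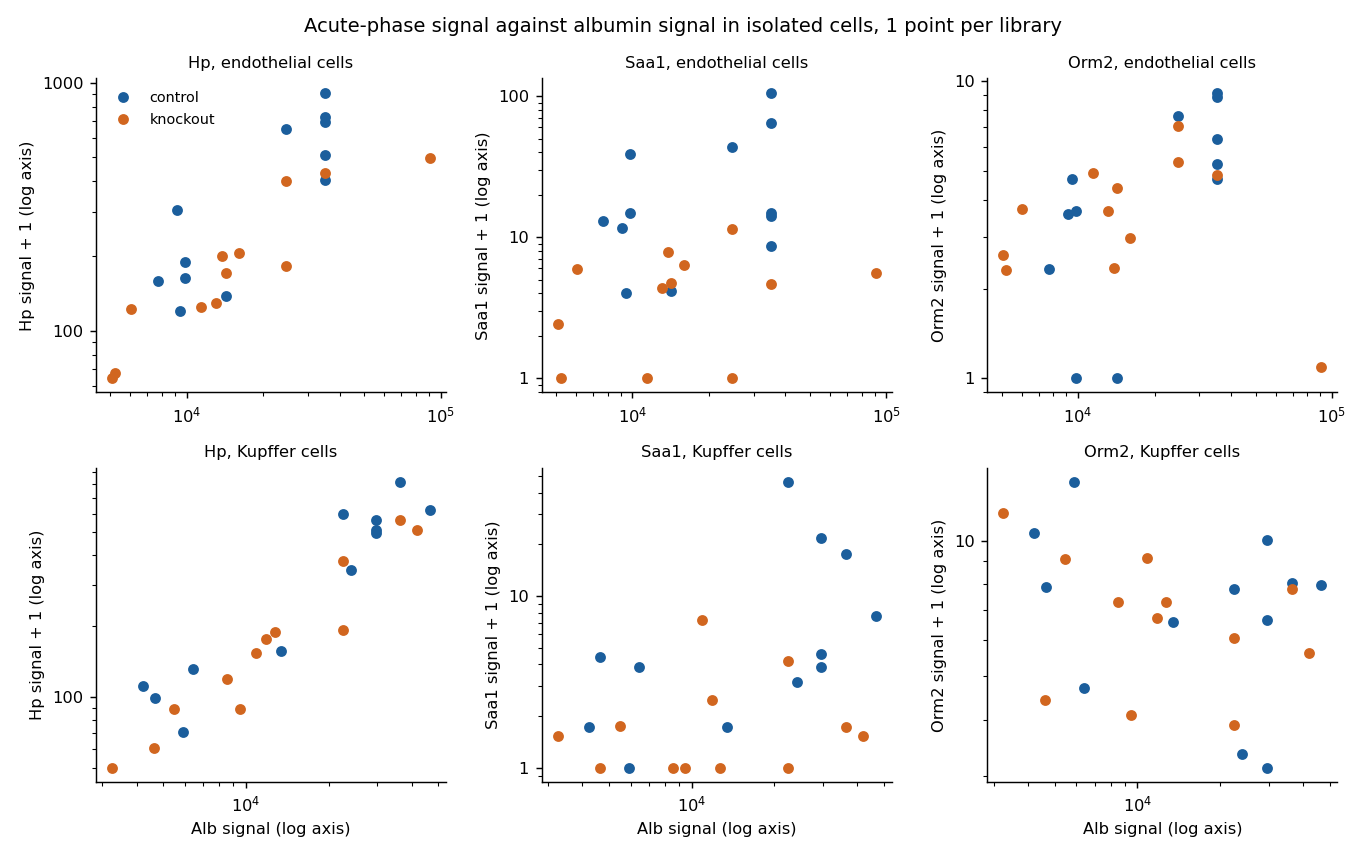
Signal + 1 of Hp, Saa1 and Orm2 (vertical, log axis) against Alb signal (horizontal, log axis) in endothelial (top) and Kupffer (bottom) libraries, 1 point per library, controls in blue and knockout in orange. Hp climbs with Alb in both cell types, Saa1 is below the endothelial control median in all 12 knockout libraries, and Kupffer Orm2 stays between 2.13 and 12.5 signal units.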

How the data were processed

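The data are 4 tables covering 144 RNA libraries. STAR, HOMER and the mm9 build are named, per the submitters' processing notes, without versions. The liver tables hold the authors' expected counts per transcript in multiples of 0.5, of which 29.5% (ad libitum) and 31.9% were not whole; they were rounded. For endothelial and Kupffer cells the authors deposited a normalised signal. Its columns all hold 1 set of sorted values, as quantile normalisation gives, which hides global shifts and leaves depth unknown. Rows per symbol were reduced to that with the largest mean. Counts were tested with edgeR 4.0.16 (TMM, filterByExpr, robust quasi-likelihood; cosine and sine of 24 h per genotype, or groups at each ZT) and signal with limma 3.58.1 (trend, robust; pseudocount 1; at least 10 in 3 libraries), Benjamini-Hochberg adjusted over all genes at 0.05. For edgeR the SE is the absolute log2 fold change divided by the square root of F. For limma it is the moderated standard error of the coefficient. The SE of a peak time in hours is an approximation from the F of the rhythm test. On simulated data with 200 genes changed 2 times, 98.5% were recovered ad libitum (12571 genes), 95.5% under reverse-phase feeding (13842), 93.5% in endothelial (12525) and 91.5% in Kupffer cells (12271). Of the genes called there, 6.19%, 4.02%, 3.11% and 5.18% were false, in the same order. The simulated noise was independent between genes and lacked the variation that hepatocyte transcripts share in the cell libraries. These rates therefore do not carry over to the members there: endothelial Hp, at -0.89 ± 0.41, was not called (SE, limma adjusted p = 0.968). The closest replicate pairs differed by 4.87 and 11.4 times the counting noise (chi-square per degree of freedom), so none was merged. Libraries stood apart beyond 3 median absolute deviations in length slope or spread, or above 5% Rn45s in liver. Lists name up to 3 called genes with the largest change each, the 5 genes most like Saa2 had a mean log2 CPM of at least 1, and all members are described. The members and lists were chosen with earlier results of these data known. Alternatives were DESeq2 1.42.0 and its size factors, other filters and pseudocounts, a replicate block, time as a factor, a 12 h harmonic, the longest transcript, a hepatocyte covariate and leaving out libraries; leaving out ZT 16 was added after seeing the data.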

Additional observations from a re-analysis of the deposited data

Results flagged for a closer look

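The 24-h rhythm differed between the 2 feeding schedules for 7 of 10 members in controls and 3 of 10 in the knockout, by a test of the difference itself (edgeR, adjusted over all 13571 genes). Of all genes, 53.5% and 49.5% did so, and the members' counts are not read as particular to them. In controls the adjusted p was 3.9e-05 for Saa1, 1.9e-05 for Saa2, 4.3e-05 for Orm1, 2.4e-06 for Orm2, 0.000164 for Lcn2, 0.0158 for Hp and 3.9e-09 for Apcs. In the knockout it was 0.033 for Saa2, 0.00462 for Orm1 and 0.0375 for Hp. Saa3, Saa4 and Orm3 were not called in either genotype. The schedules also differ by table and depth, which cannot be told apart from feeding.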

How the results depend on the processing

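Counts below are members called, of 10, or of 80 member and ZT combinations. Most are given without the share of all genes under the same alternative, and none is read as particular to the members. Across alternatives no called member reversed direction. With a second harmonic of 12 h, 6 members were rhythmic in ad libitum controls against 2. With no filter on low genes, 2 were rhythmic in the reverse-phase knockout against 4, and 9 ad libitum combinations were called against 15; DESeq2 called 27 of those. With the hepatocyte covariate, 2 members each were called for genotype in endothelial and Kupffer cells and 2 and 1 for time, against 0, and the all-gene genotype counts went from 3 to 46 and from 3 to 45. The cause was not tested.

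Leaving out 1 library, or all libraries of 1 replicate number, gave 7 to 10 members for the genotype effect in ad libitum and 5 to 9 in reverse-phase liver, 1 to 4 and 8 to 10 for rhythm in controls, 0 to 1 and 1 to 4 for rhythm in the knockout. Omitting ZT 16 left 6 members rhythmic in reverse-phase controls. At single ZT, leaving out a replicate number gave 3 to 10 and 3 to 7 combinations, and leaving out the libraries that stand apart gave 11 ad libitum. Omitting 1 library or number gave 6 to 7 for rhythm between schedules in controls, 0 to 3 in the knockout, and 0 to 1 in endothelial cells for genotype and for time. Without replicate number 1, 2 or 3 each group keeps 2 libraries and Lcn2 ad libitum was not called in any of these 3 fits. All-gene counts moved by over 1.5 times in some of these: the genotype effect from 3432 to 2158 ad libitum without number 1 and from 3711 to 2431 under reverse-phase feeding without number 3, the rhythm difference from 425 to between 159 and 207 and from 210 to between 41 and 83, and genotype by feeding from 28 to 5 without number 2 and 18 without number 3. Rhythm in the ad libitum knockout went from 5546 to 3621 (number 1), in reverse-phase controls from 5706 to 3571 (number 2) and 3683 (number 3), in the reverse-phase knockout from 5112 to 2356, and between schedules in the knockout from 6713 to 4414 (number 3). Calls at single ZT went from 4382 to between 1764 and 2210 and from 3705 to between 982 and 2357. DESeq2 gave 331 reverse-phase rhythm differences, and omitting ZT 16 gave 107. The endothelial genotype count of 3 became 1 with a pseudocount of 0.1 and 5 or 7 without knockout ZT 22 number 1 or 2, and the Kupffer count of 3 became 6 without libraries that stand apart. Without these libraries the time test called 2914 genes in endothelial cells against 1713 and 650 in Kupffer cells against 1413.

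Replicate numbers were not shown to pair control and knockout libraries. Correlations of same-numbered deviations passed 0.1 in 5 of 24 ad libitum, 8 of 24 reverse-phase, 1 of 12 endothelial and 4 of 12 Kupffer pairs. The reverse-phase values ran from -0.44 to 0.50. Differently numbered pairs were not compared, so pairing could not be judged from these values. With the number as a block, the genotype effect was called for 10 members in ad libitum liver and for 7 in reverse-phase liver, where Lcn2 was lost (adjusted p = 0.059), and 2 members were rhythmic in the reverse-phase knockout. No reverse-phase library stood apart, so that alternative was not run there. Counts below about 10 per library limit Orm3, and unknown depth limits every endothelial and Kupffer value.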

Other observations

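Both comparisons here were chosen after seeing the data. The ratio of Saa1 to Saa2 CPM was lower in the knockout. Ad libitum its median was 3.58 in controls, with a range of 2.09 to 5.22, and 1.80 in the knockout, with a range of 1.24 to 3. The log2 difference was -0.87 (permutation p = 1e-05 within ZT, the smallest that 100000 permutations can give), and the knockout mean was lower at 8 of 8 ZT. Under reverse-phase feeding the medians were 2.16 and 1.86, with ranges of 1.41 to 3.96 and 1.20 to 2.31, and the difference was -0.32 (permutation p = 0.00458, lower at 7 of 8 ZT). With 93.9% identity, how the authors' counting split reads between the 2 transcripts was not tested.

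Endothelial and Kupffer libraries of the same genotype, ZT and number had like levels of several members, in 11 relations over 24 pairs on the log2(signal + 1) scale. Here the permutations ran over all 24 pairs and not within groups. Differences by genotype and ZT that both cell types share therefore enter these p, and the r within groups has no p. Hp had r of 0.93 and rho of 0.93 (permutation p = 1e-05, adjusted 2.8e-05), with r of 0.91 without the 2 farthest pairs and 0.94 within groups. Alb had r of 0.91 and rho of 0.92 (permutation p = 1e-05, adjusted 2.8e-05), with 0.91 and 0.93. Saa1 had r of 0.80 and rho of 0.85 (permutation p = 1e-05, adjusted 2.8e-05), with 0.68 and 0.63. Saa2 had r of 0.76 (permutation p = 8e-05, adjusted 0.000126), with 0.61 and 0.37. Saa3 had r of -0.02 (permutation p = 0.914, adjusted 0.914) and Orm2 0.12 (permutation p = 0.58, adjusted 0.709). The labels do not say that same-numbered libraries of the 2 cell types came from the same mouse.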
